A study of Mus musculus with 32 samples.

Results

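Clear cell sarcomas of the mouse that had been started with TATCre were compared with those started by a Cre of mesenchymal progenitors, Prx1CreERT2 or Bmi1IRESCreERT2. The comparison took 8 of the 32 sequenced libraries by the Cre named in their labels: 4 TATCre, 2 Prx1CreERT2 and 2 Bmi1IRESCreERT2 tumours. It asked which transcripts differed between TATCre tumours and both progenitor groups, and which differed from one of these groups alone. The remaining 24 libraries were 5 clear cell sarcomas started with Rosa26CreER, 7 osteosarcomas, 6 synovial sarcomas and 6 control samples, and they served as outside references. By title, 3 osteosarcomas carry Prx1CreRb1p53 and 4 Col1CreRb1p53, the synovial sarcomas carry Myf5-SSM2/PLUC, and the controls are named Chest (5) or Bone (1).

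The TATCre tumours are named N178-Lleg, N179-Larm, N123-RLN and N123-Rleg, the Prx1CreERT2 tumours N2 and N4, and the Bmi1IRESCreERT2 tumours N1 and N2. The titles of all 13 clear cell sarcomas carry the code EA1, which the labels do not spell out, so whatever it stands for is shared by every group compared among them. Each TATCre title ends in letters that could stand for an anatomical position, such as Rleg or Larm, and no title of the Prx1CreERT2 or Bmi1IRESCreERT2 tumours does, so position and Cre cannot be told apart. Age, sex, strain, dose and time were not given in the labels. A pair of TATCre libraries share the number N123, and nothing in the labels says whether libraries came from separate animals. The p-values below thus reflect library-to-library spread, and how much of it is technical cannot be told.

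Clear cell sarcoma arises in tendons and deep soft tissue and is driven by a fusion of EWSR1 with a transcription factor of the CREB family, most often ATF1, and it commonly expresses melanocytic genes. Cre is a DNA recombinase that switches on an allele by removing a stop between loxP sites. TATCre is Cre protein joined to a peptide that carries it into cells, so it has no promoter that limits it to a cell type. Prx1 regulatory sequences are active in limb mesenchyme and Bmi1 is a Polycomb gene used to mark stem and progenitor cells, and in CreERT2 the recombinase acts after tamoxifen. Rosa26 is active in most cell types.

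Expression was given as RPKM, reads per kilobase of transcript per 1e6 reads, for 55419 transcripts named by UCSC identifiers. The files do not pair these identifiers with gene names, so the results are described by sets of transcripts, and 4 identifiers chosen by a fixed rule stand for them. Melanocytic, limb and tissue markers could not be read for the same reason, and the labelled tumour type was checked with a set of transcripts instead. Depth was recovered from the steps of the RPKM values, and the total behind them was 9.17 to 11.5 M reads in the TATCre libraries, 8.13 and 8.23 M in Prx1CreERT2, and 8.90 and 10.98 M in Bmi1IRESCreERT2. Differences are log2 differences of RPKM + 1, so a change of a transcript with low RPKM is understated. A transcript was called when the adjusted p of limma was under 0.05. The fit held all 13 clear cell sarcomas, and 15195 transcripts were tested, those that reached an RPKM of 1 in 2 or more tumours.

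Values listed at exactly 0 were not independent between libraries. In 14 pairs of libraries the transcripts above 0 were nearly the same ones, and almost none of these had fewer than 20 reads summed over the pair. The Prx1CreERT2 tumours N2 and N4 formed such a pair. Of the 12248 transcripts above 0 in either, 67 were above 0 in one alone and 2 had fewer than 20 summed reads, while 149 had exactly 20. For comparison, the unpaired Prx1CreERT2 N2 and Bmi1IRESCreERT2 N2 had 1391 of 13390 such transcripts under 20 summed reads. Each Bmi1IRESCreERT2 library was paired with a Rosa26CreER library, TATCre N123-Rleg with a control, TATCre N178-Lleg with a synovial sarcoma, and TATCre N123-RLN and N179-Larm with none. The labels do not name these pairs, and a 0 in 1 library of a pair therefore depends on the other. The Prx1CreERT2 libraries were not copies of each other: their reads differed by a chi-square of 173 per degree of freedom over 8778 transcripts, against 71.5 to 224 between TATCre libraries. The plot of how far libraries share their zeros gives this for all 32.

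**Figure D1:**
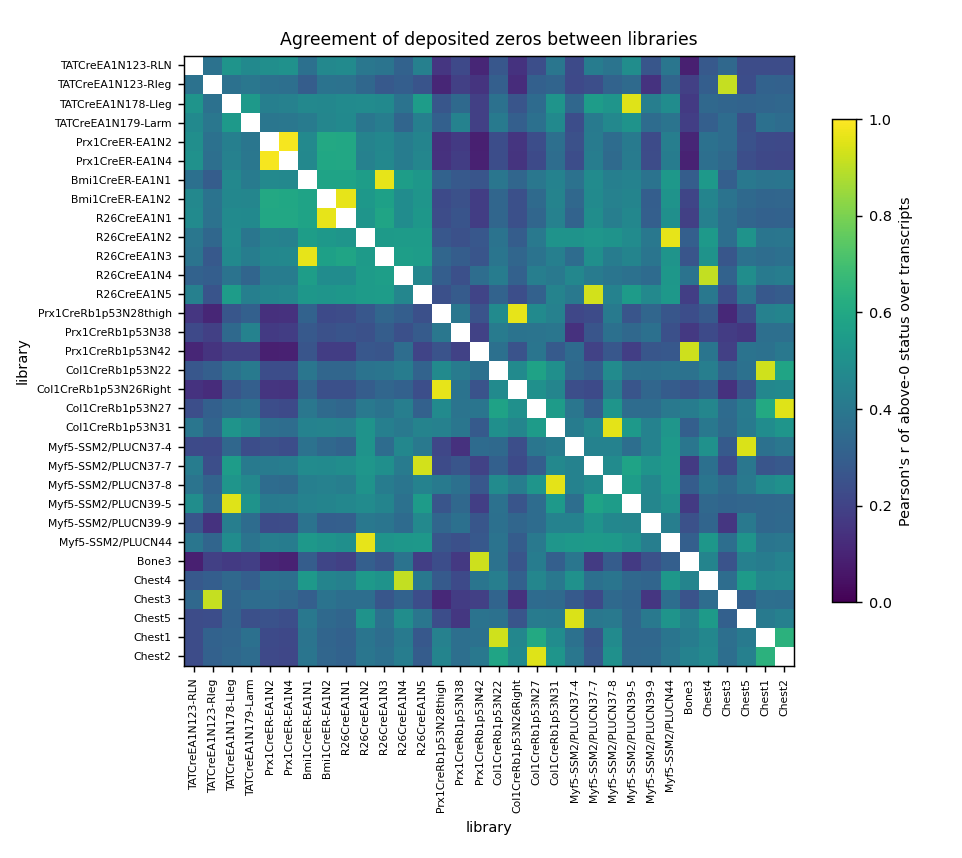
Correlation (Pearson's r) between libraries of whether a transcript is above 0, over the 10343 transcripts above 0 in 2 to 31 libraries, with libraries on both axes and the colour giving r. The 14 pairs stand out between 0.910 and 0.985, including the Prx1CreERT2 libraries, and no other combination reached more than 0.641.

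TATCre tumours differed from both progenitor groups in 237 transcripts, 1.56% of those tested, and 193 of these were higher (1.27%) and 44 lower (0.29%) in the TATCre tumours. None was higher against one group and lower against the other. The 193 had a median of 29.2 RPKM in TATCre tumours, 1.34 in Prx1CreERT2 and 1.02 in Bmi1IRESCreERT2 tumours. The 44 had a median of 0.444 RPKM in TATCre tumours, 16.6 in Prx1CreERT2 and 10.7 in Bmi1IRESCreERT2 tumours. The 237 were 55.2% of the calls against Prx1CreERT2 and 13.5% of the calls against Bmi1IRESCreERT2, which share the 4 TATCre libraries. Bulk RNA cannot tell fewer cells of a type from less RNA per cell.

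Against the Prx1CreERT2 tumours alone, 429 transcripts were called (2.82%), with 273 higher (1.8%) and 156 lower (1.03%) in TATCre. Many of these differences rested on values listed at 0, where a log2 difference depends on the added 1. The 273 had a median of 0 RPKM in Prx1CreERT2, and 87 of the 156 were listed at 0 in every TATCre library. On this scale 184 of the 273 higher and 112 of the 156 lower calls were at least 4-fold. Their median sizes were 2.63 and 2.61 in log2. This balance turned to 414 higher and 478 lower without TATCre N178-Lleg and to 71 and 88 without Prx1CreERT2 N4, and the 156 lower calls became 79 at a length of at least 100 bases and 36 at a mean of at least 50 reads. Against the Bmi1IRESCreERT2 tumours 1761 were called (11.6%), with 1129 higher (7.43%) and 632 lower (4.16%). Here the higher calls were mostly smaller, with a median of 1.46 in log2 and 287 of 1129 at least 4-fold. The lower calls had a median of 2.40 with 420 of 632 at least 4-fold. More calls loosen the cut-off of the p adjustment and let smaller differences pass. Sizes of called transcripts are thus not like for like between these comparisons. Against the mean of both groups 2101 were called (13.8%), 1222 higher (8.04%) and 879 lower (5.78%). Median ratio scaling of the libraries turned the balance of the Bmi1IRESCreERT2 calls to 756 higher and 833 lower, and that of the calls against the mean of both groups to 1083 and 1120, so the excess of higher calls in these comparisons depends on scaling. The 193 and 44 became 185 and 56 under that scaling.

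The 193 transcripts higher in TATCre were separate in every library. Their mean log2(RPKM + 1) was 5.00 in N123-RLN, 5.05 in N123-Rleg, 4.70 in N178-Lleg and 5.19 in N179-Larm. It was 2.31 and 2.28 in Prx1CreERT2 N2 and N4, and 2.31 and 2.08 in Bmi1IRESCreERT2 N1 and N2. All 193 were above every progenitor library in all 4 TATCre libraries, which the choice of the set nearly fixes; over all tested transcripts this held for 9.01%. Among the TATCre libraries N178-Lleg had the lowest value in 86 of the 193. By median RPKM of the set the TATCre libraries lay between 24.2 and 32.3 and the progenitor libraries between 0.587 and 1.70.

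These 193 differences had a median of 2.41 in log2 against the mean of the progenitor groups, with quartiles of 1.68 and 3.43. All were at least 2-fold, 122 at least 4-fold and 59 at least 8-fold. The medians were 2.39 against Prx1CreERT2 and 2.41 against Bmi1IRESCreERT2. Similar distances are partly built in, since each transcript had to be called against both groups. Over all tested transcripts the medians of these contrasts were 0.00 and -0.14. For 63 of the 193 all 4 progenitor libraries were listed at 0, where a log2 difference depends on the added 1 and is the same against both groups. In these 63 the Prx1CreERT2 libraries, which share their zeros as a pair, are not independent. The median transcript of the 63 had 42.5 reads in a TATCre library. The other 130 had a median difference of 2.22 in log2. By recovered length the set was ordinary: 171 had at least 100 bases, 8 were shorter and 14 had none, with a median of 1134 bases against 1143 over all tested. Lengths here and for the named transcripts are those behind the RPKM values and were not checked against an annotation.

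The 44 transcripts lower in TATCre were a smaller and more weakly covered set. Their mean log2(RPKM + 1) was 1.67 in N123-RLN, 1.61 in N123-Rleg, 2.05 in N178-Lleg and 1.57 in N179-Larm. It reached 4.66 and 4.40 in Prx1CreERT2 N2 and N4, and 4.43 and 4.37 in Bmi1IRESCreERT2 N1 and N2. In 43 of the 44 every TATCre library was below every progenitor library, which the choice of the set nearly fixes. Over all tested transcripts this held for 8.02%. The median difference was -2.49 in log2, with 33 at least 4-fold and 16 at least 8-fold. In 17 of the 44 all TATCre libraries were listed at 0, and the other 27 had a median of -2.40. Their median length was 447.5 bases and the median transcript had 36.5 reads in a progenitor library, against 288 reads in a TATCre library for the 193.

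**Figure D2:**
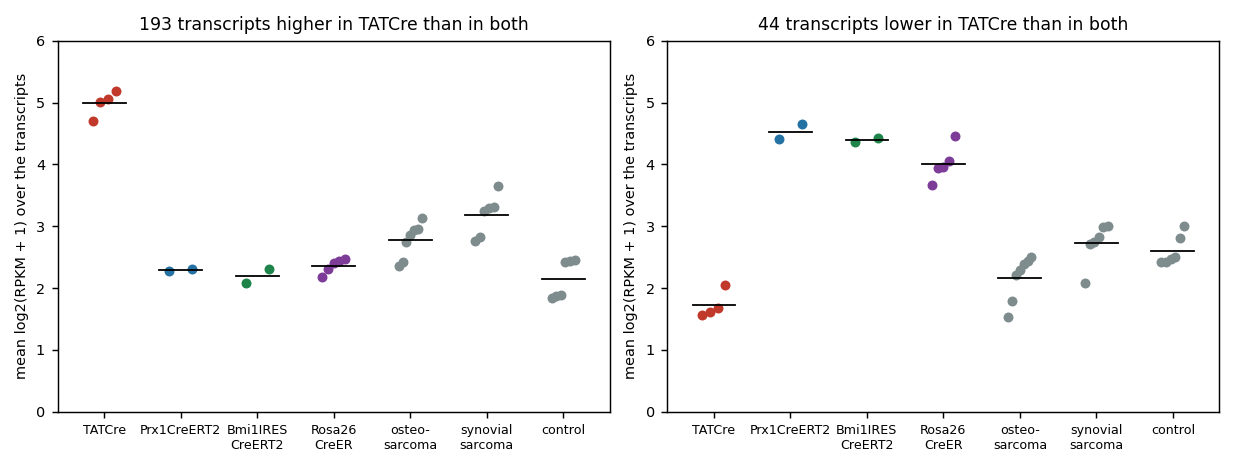
Mean log2(RPKM + 1) of the 193 transcripts higher (left) and the 44 lower (right) in TATCre tumours than in both progenitor groups, by group of the 32 libraries. Each point is a library and each line a group mean. Contrasts of the 8 compared libraries chose the sets, and the Rosa26CreER libraries entered only the filter and the estimate of spread. The Rosa26CreER points lie between 2.18 and 2.47 on the left and between 3.66 and 4.45 on the right.

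Rosa26CreER tumours were in neither contrast, though they entered the filter and the estimate of spread. Over both sets they lay nearer to the progenitor groups than to the TATCre tumours. Their mean log2(RPKM + 1) over the 193 was 2.18 to 2.47 in 5 libraries, below every TATCre library. Over the 44 it was 3.66 to 4.45, above every TATCre library. The Rosa26CreER group mean over the 44 was 4.01, below 4.53 in Prx1CreERT2 and 4.40 in Bmi1IRESCreERT2. Of the 193, the Rosa26CreER mean was nearer to the progenitor mean than to the TATCre mean in 187 (96.9%), and of the 44 in 38 (86.4%). Over all tested transcripts it was nearer to the progenitor mean in 64.7%. Extreme TATCre values chose both sets, which tends to raise such shares for any other group. The control mean was nearer to the TATCre mean in 20 of the 193 and in 30 of the 44. The Rosa26CreER libraries were in the same fit. Both Bmi1IRESCreERT2 libraries also share their zeros with a Rosa26CreER library, so the Rosa26CreER shares are a description.

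Other tissues placed the sets differently. Over the 193 the osteosarcomas had means of 2.36 to 3.12, the synovial sarcomas 2.75 to 3.64 and the controls 1.84 to 2.45, all below the lowest TATCre library. The control mean was above the TATCre mean in 2 of the 193 (1.04%), against 39.9% of all tested transcripts. The high TATCre values that chose the 193 largely fix this low share. Over the 44 the controls had means of 2.41 to 3.01, above the TATCre libraries at 1.57 to 2.05 and below the progenitor libraries at 4.37 to 4.66. Osteosarcomas overlapped the TATCre tumours there, at 1.53 to 2.51.

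The rule for named transcripts took those with the largest difference among called transcripts of at least 100 bases, a mean of 5 RPKM or more where it was higher, and no overlap between TATCre and progenitor libraries. It was met by 148 of the 193 and 28 of the 44, and the first 2 of each direction are given here with their values. No sequence, genome position or gene is given for them because the reference tables used here hold no such identifiers.

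The transcript uc007ubp.1, of 512 bases, had the largest difference among the 148 that met this rule. Its RPKM was 305 in N123-RLN, 1271 in N123-Rleg, 383 in N178-Lleg and 396 in N179-Larm. It was 2.40 and 8.78 in the Prx1CreERT2 tumours and 4.61 and 0.890 in the Bmi1IRESCreERT2 tumours. The lowest TATCre value was therefore far above the highest progenitor value. The log2 difference from the mean of both groups was 6.83 ± 1.02 (SE; limma, adjusted p = 0.00298), with 6.42 ± 1.25 against Prx1CreERT2 (adjusted p = 0.0196) and 7.24 ± 1.25 against Bmi1IRESCreERT2 (adjusted p = 0.00902). Between the progenitor groups the difference did not pass the test (limma, adjusted p = 0.879). Rosa26CreER tumours had 0 to 24.4 RPKM, osteosarcomas at most 11.6, synovial sarcomas at most 0.358 and controls at most 1.69, so no library outside the TATCre tumours came near them.

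The transcript uc012fvj.1, of 860 bases, came next. Its RPKM was 345 in N123-RLN, 884 in N123-Rleg, 187 in N178-Lleg and 728 in N179-Larm. In the Prx1CreERT2 tumours it was 14.7 and 27.8, and in the Bmi1IRESCreERT2 tumours 2.87 and 0. All 4 TATCre values exceeded the progenitor values, and both Prx1CreERT2 values exceeded both Bmi1IRESCreERT2 values. The log2 difference was 6.13 ± 0.74 from the mean of both groups (SE; limma, adjusted p = 0.00077), 4.41 ± 0.91 from Prx1CreERT2 (adjusted p = 0.0260) and 7.85 ± 0.91 from Bmi1IRESCreERT2 (adjusted p = 0.00112). The difference between the progenitor groups, 3.44 ± 1.05 in log2, missed the threshold (limma, adjusted p = 0.183). Every osteosarcoma was listed at 0, and the Rosa26CreER tumours had at most 6.74 RPKM.

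The transcript uc007xee.1, of 305 bases, was listed at 0 in all 4 TATCre libraries. Prx1CreERT2 tumours had 48.8 and 27.1 RPKM and Bmi1IRESCreERT2 tumours 34.2 and 34.6, from 68 to 121 reads. No fold is given against a group listed at 0. The fitted log2 difference of -5.19 ± 0.32 depends on the added 1 (SE; limma, adjusted p = 4.37e-06). Rosa26CreER tumours had 42.5 to 128 RPKM, while osteosarcomas and controls were all listed at 0 and synovial sarcomas had at most 0.881 RPKM. The transcript was thus above 1 RPKM in the clear cell sarcomas of the other Cre groups and in no other library.

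The transcript uc009jnr.1, of 1892 bases, showed the same order with values above 0 throughout the clear cell sarcomas. Its RPKM was 0.611 in N123-RLN, 1.10 in N123-Rleg, 3.08 in N178-Lleg and 2.54 in N179-Larm. Prx1CreERT2 tumours had 54.5 and 80.5 RPKM, Bmi1IRESCreERT2 tumours 44.7 and 147, and Rosa26CreER tumours 70.6 to 162. The groups did not overlap, and the log2 difference was -4.81 ± 0.42 (SE; limma, adjusted p = 6.66e-05). Osteosarcomas were listed at 0, and no synovial sarcoma or control exceeded 0.121 RPKM. Against the mean of both groups, each of the 4 named transcripts kept its direction and its call when any of the 8 libraries was left out. The naming rule of no overlap fixes that direction, and its choice of the largest differences favours the call. In the separate contrasts with Prx1CreERT2 and Bmi1IRESCreERT2, uc007xee.1 and uc009jnr.1 also kept both calls. The transcript uc007ubp.1 lost its call against Prx1CreERT2 when either Prx1CreERT2 library was left out (limma, adjusted p up to 0.230). The transcript uc012fvj.1 lost it in the same way and also without TATCre N123-Rleg or N179-Larm (limma, adjusted p up to 0.254), and with a pseudocount of 0.5 (adjusted p = 0.0659).

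**Figure D3:**
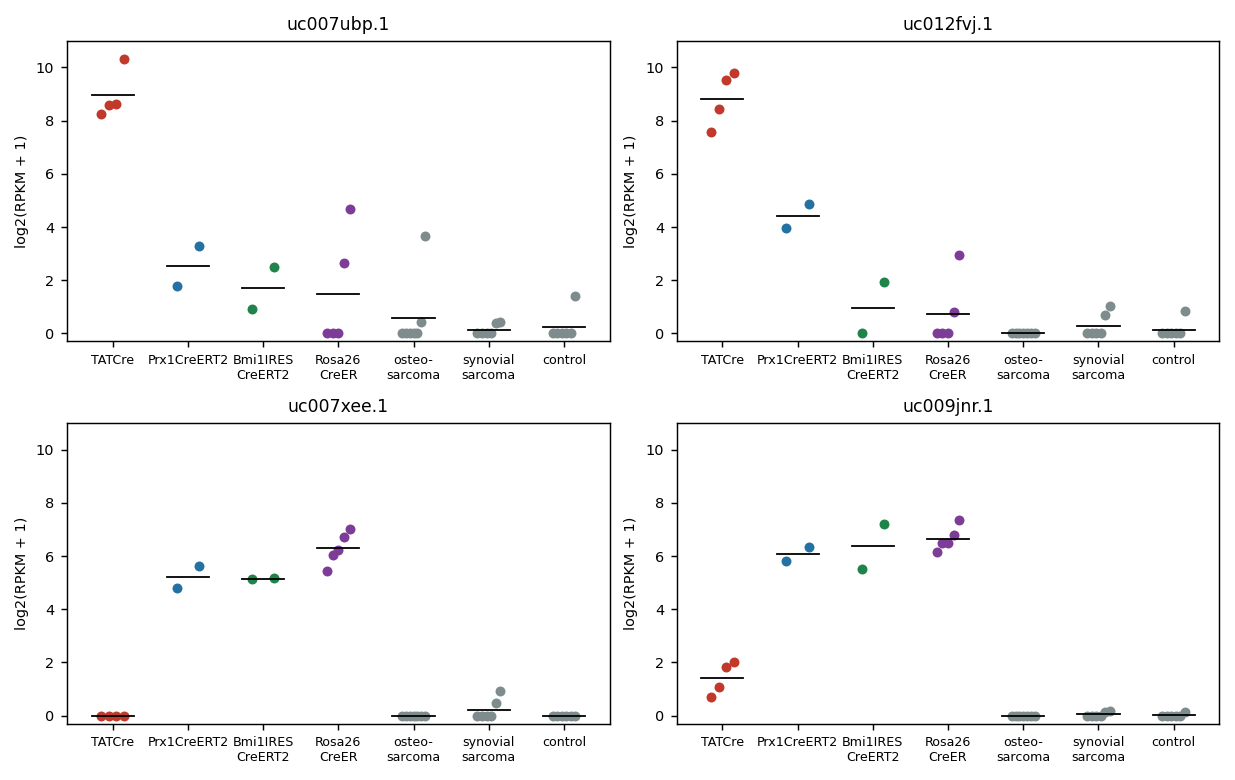
log2(RPKM + 1) of the 4 named transcripts in all 32 libraries by group, each point a library and each line a group mean. In the upper panels the TATCre tumours stand above every other library, and in the lower panels the TATCre tumours lie below all Prx1CreERT2, Bmi1IRESCreERT2 and Rosa26CreER tumours.

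How many transcripts differed from both groups rested on single libraries. The count of 237 became 145 without TATCre N179-Larm and 637 (325 higher and 312 lower) without N178-Lleg, 65 and 76 without Prx1CreERT2 N2 or N4, and 92 and 137 without Bmi1IRESCreERT2 N1 or N2. It was 185 and 231 without N123-RLN or N123-Rleg, and 257 with these averaged. Of the 237, 228 remained without N178-Lleg and 59 without Prx1CreERT2 N4, where the lone Prx1CreERT2 library was assumed to vary like the other groups. The read-based alternatives, which were chosen after seeing the data, gave 226 (188 higher and 38 lower) on a scale of log2 of reads scaled to 10 M in total plus 20, with 186 shared with the 237. Among the 7995 transcripts with a mean of at least 50 reads, 120 (100 higher and 20 lower) were called against both groups, 110 of them shared.

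The progenitor groups differed directly from each other in 152 transcripts (1%), 73 higher in Prx1CreERT2 (0.48%) and 79 higher in Bmi1IRESCreERT2 (0.52%). A difference from TATCre was counted as holding for one progenitor group when it was called there, was not called for the other, and the progenitor groups also differed from each other by this test. That left 98 transcripts for Prx1CreERT2, 38 of them higher and 60 lower in TATCre, and 54 of the 60 had passed the filter on low values through just 2 libraries, so they had to differ. It left 43 for Bmi1IRESCreERT2, 7 higher and 36 lower. Without the direct test the counts would have been 192 and 1524.

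Values listed at 0 carried the differences from Prx1CreERT2. Each of the 38 higher in TATCre than in Prx1CreERT2 was listed at 0 in both Prx1CreERT2 libraries, with a median of 12.9 RPKM in TATCre and a median of 15.5 reads over the other 11 clear cell sarcomas. In none of them did the median TATCre library exceed 31.5 reads. Of the 60 lower in TATCre, 51 were above 0 in the Prx1CreERT2 libraries and in no other clear cell sarcoma, which the filter nearly fixes, with medians of 10.6 and 7.59 RPKM in N2 and N4. Of these 51, 7 were above 0 in any of the 19 libraries of other tissues. These are the libraries that share their zeros as a pair, so N2 and N4 are not independent for such transcripts.

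The Bmi1IRESCreERT2 differences rested largely on zeros of the same pair. Of the 36 lower in TATCre, 33 were listed at 0 in both Prx1CreERT2 libraries and 18 in all TATCre libraries. The control mean was above the TATCre mean in 35 of the 36 (97.2%), against 39.9% of all tested transcripts. The low TATCre values that chose the 36 largely fix that share. Of the 7 higher in TATCre, 5 were above 0 in all 8 libraries. The 7 averaged 6.86 to 7.22 in log2(RPKM + 1) over the TATCre libraries, 6.56 and 6.99 in Prx1CreERT2, and 3.76 and 4.07 in Bmi1IRESCreERT2. These levels are the ones that chose the 7.

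Few one-group differences could be followed where low read counts are left out or given less weight. A mean of 50 reads was reached by 0 of the 38 and 1 of the 60 transcripts for Prx1CreERT2 and by 5 of the 7 and 4 of the 36 for Bmi1IRESCreERT2, so the first limit removed most of them before any test. With a mean of at least 50 reads the direct comparison of the progenitor groups called 0 transcripts by limma, with 828 at an unadjusted p under 0.05, and 0 one-group differences were left for either group. On the scale of reads plus 20 the direct comparison called 1, and 0 and 1 were left. That scale needs a recovered length, which 53 of the 60 lacked and the 38, the 7 and the 36 all had. At a length of at least 100 bases 23 were called directly, leaving 14 for Prx1CreERT2 and 8 for Bmi1IRESCreERT2. A direct test of 2 libraries against 2 that calls few transcripts does not show that the groups act alike.

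**Figure D4:**
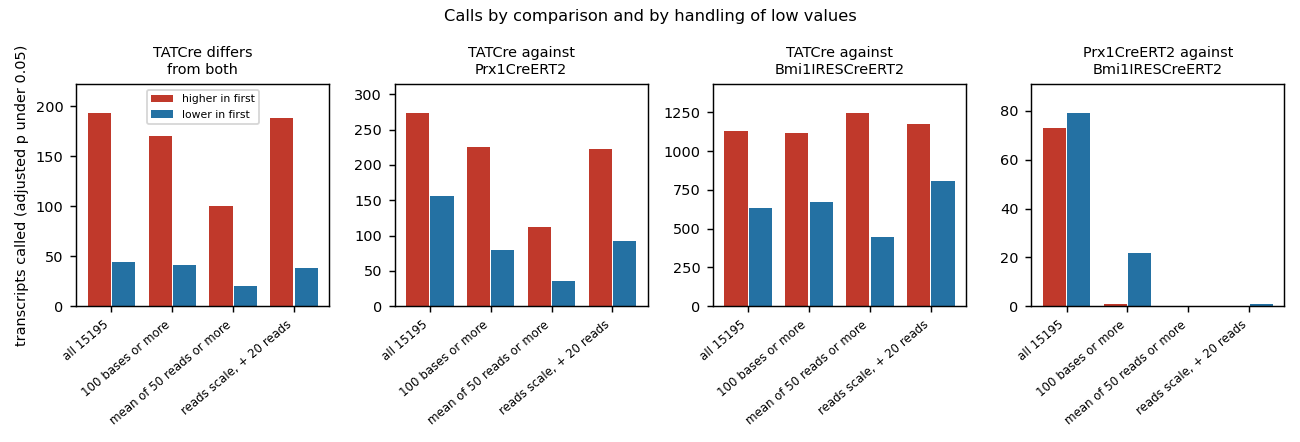
Number of transcripts called (limma, adjusted p under 0.05) in each comparison, higher and lower in the group named first, over all 15195 tested transcripts, at a length of at least 100 bases, at a mean of at least 50 reads and on the scale of reads scaled to 10 M in total plus 20; each panel has its own axis from 0. The calls against both groups went from 193 and 44 to 188 and 38 on the reads scale, which leaves out the 500 transcripts with no recovered length, and those between the progenitor groups went from 152 to 1.

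For the 1524 transcripts called against Bmi1IRESCreERT2 and not Prx1CreERT2, the test of the difference was passed by 43. The 936 higher ones had a median of 1.38 in log2 against Bmi1IRESCreERT2 and 0.70 against Prx1CreERT2, and the 588 lower ones had -2.39 and -1.07. Both contrasts share the TATCre libraries, so these medians are given side by side. For the rest a difference between the progenitor groups was not established.

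Transcripts of the control tissue were called lower in TATCre than in Bmi1IRESCreERT2 more often than tested transcripts as a whole. A set of 346 transcripts was fixed on the other 24 libraries as at least 4-fold higher in controls than in Rosa26CreER clear cell sarcoma, osteosarcoma and synovial sarcoma. Its mean log2(RPKM + 1) was 0.81, 1.17, 0.96 and 1.47 in the TATCre tumours in the order above. It was 2.58 in Prx1CreERT2 N2, 0.91 in Prx1CreERT2 N4, 4.24 in Bmi1IRESCreERT2 N1 and 3.04 in Bmi1IRESCreERT2 N2. Both Bmi1IRESCreERT2 libraries were therefore above all TATCre libraries, while Prx1CreERT2 N2 was above them and N4 lay within their range. The mean of the set was 5.24 to 6.01 in controls. It was 0.86 to 3.15 in Rosa26CreER tumours, 0.94 to 3.22 in osteosarcomas and 1.23 to 3.65 in synovial sarcomas. Each of these tumour groups thus reached above Bmi1IRESCreERT2 N2 and stayed below N1.

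Of the 282 members of this set that were tested, 95 were called lower in TATCre than in Bmi1IRESCreERT2 (33.7%, against 4.16% of all tested) and 2 higher (0.709%, against 7.43%). For Prx1CreERT2 1 was called lower (0.355%, against 1.03%) and 3 higher (1.06%, against 1.8%). Their median log2 difference was -2.94 against Bmi1IRESCreERT2 and -0.74 against Prx1CreERT2. Direct calls between the progenitor groups covered 7 of them, all higher in Bmi1IRESCreERT2. As a share of summed RPKM over transcripts of at least 100 bases the set held 0.236% to 0.5265% in TATCre tumours, 1.47% and 0.227% in Prx1CreERT2 N2 and N4, 4.63% and 2.52% in Bmi1IRESCreERT2 N1 and N2, and 9.25% to 10.99% in controls. Over all 632 transcripts lower in TATCre than in Bmi1IRESCreERT2, the control mean was above the TATCre mean in 569 (90.0%), against 53 of the 156 lower than in Prx1CreERT2 and 39.9% of all tested. Low TATCre values chose the 632 and the 156, which raises such shares. Of the 156, 59 had passed the filter on low values through just 2 libraries, and of the 632, 7 had. The shares are thus not like for like. The part of normal tissue in the differences from Bmi1IRESCreERT2 was not tested. Without Bmi1IRESCreERT2 N1, the library with the higher level, 204 transcripts were called against Bmi1IRESCreERT2 in place of 1761, 157 higher and 47 lower, and without N2 1050 were called.

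Of the 282 tested members of this set, 2 were among the 193 (0.709%, against 1.27% of all tested) and 1 among the 44 (0.355%, against 0.29%), which is near the shares over all transcripts.

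A second outside set checked the labelled tumour type in the 8 libraries. These 284 transcripts were at least 4-fold higher in Rosa26CreER clear cell sarcoma than in controls, osteosarcoma and synovial sarcoma. Their mean log2(RPKM + 1) was 4.22, 4.26, 4.67 and 4.08 in the TATCre tumours, 5.24 and 5.21 in Prx1CreERT2, and 4.88 and 4.70 in Bmi1IRESCreERT2. Rosa26CreER tumours, on which the set was chosen, had 5.43 to 5.81, and no library of another tissue exceeded 2.32. The TATCre tumours were thus clear of the other tissues. By this mean they were below all 4 progenitor libraries, but over the 260 members of at least 100 bases N178-Lleg, at 4.68, was above Bmi1IRESCreERT2 N2, at 4.60. As a share of summed RPKM over those 260 the set held 5.55% to 8.13% in TATCre, 6.94% and 9.95% in Prx1CreERT2, and 5.94% and 4.24% in Bmi1IRESCreERT2, so the groups overlapped and the order of TATCre and Bmi1IRESCreERT2 depends on the measure.

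Member by member, 16 of the 284 were called lower in TATCre than in Prx1CreERT2 (5.63%, against 1.03% of all tested) and 4 higher (1.41%, against 1.8%), with a median log2 difference of -0.83. Against Bmi1IRESCreERT2 26 were lower (9.15%, against 4.16%) and 22 higher (7.75%, against 7.43%), with a median of -0.43, so the higher calls were near the share of all transcripts in both comparisons. The medians over all tested transcripts were 0.00 and -0.14. Against both groups 10 were lower (3.52%, against 0.29%) and 4 higher (1.41%, against 1.27%), so 10 of the 44 transcripts lower in TATCre came from this set and 4 of the 193. Between the progenitor groups 2 of the 284 were called, both higher in Prx1CreERT2.

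**Figure D5:**
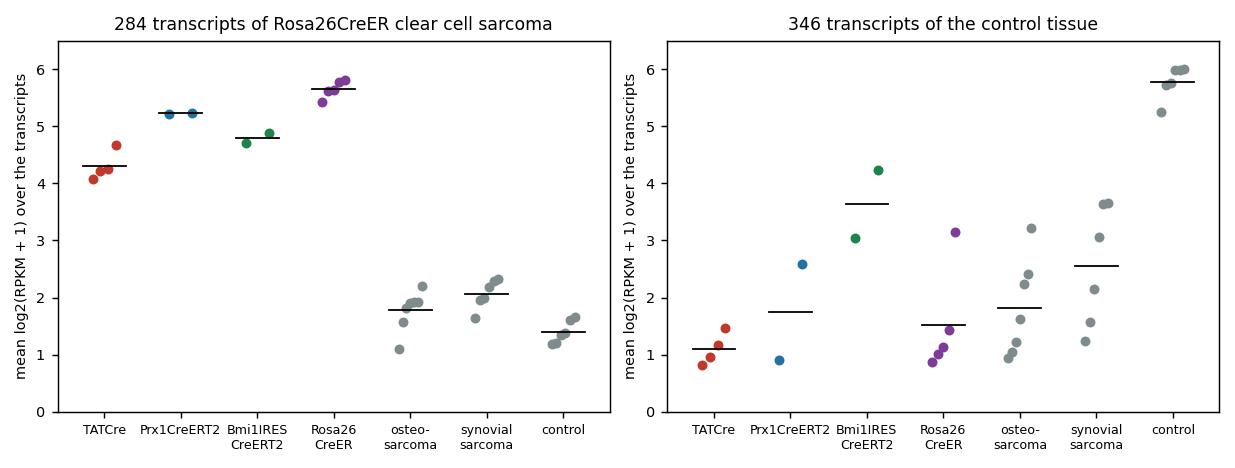
Mean log2(RPKM + 1) of the 284 transcripts that mark Rosa26CreER clear cell sarcoma (left) and of the 346 that mark the control tissue (right), both fixed on the 24 other libraries; each point is a library and each line a group mean. On the left the TATCre tumours lie above all other tissues and, on this mean over all lengths, below the other clear cell sarcomas, an order that turns for N178-Lleg (4.68) and Bmi1IRESCreERT2 N2 (4.60) at 100 bases or more; on the right Bmi1IRESCreERT2 stands at 3.04 and 4.24, above the TATCre tumours.

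Whole profiles showed the same unevenness among libraries. Over the 13205 tested transcripts of at least 100 bases, Spearman's rho between TATCre libraries was 0.847 to 0.911, with 0.882 between those numbered N123. It was 0.925 between the Prx1CreERT2 libraries and 0.853 between the Bmi1IRESCreERT2 libraries. TATCre libraries had a rho of 0.798 to 0.875 with Prx1CreERT2 and of 0.678 to 0.806 with Bmi1IRESCreERT2, and the progenitor groups 0.768 to 0.909 with each other. These are correlations across genes, which are not independent, and the Prx1CreERT2 value includes zeros set as a pair.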

How the data were processed

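RNA was extracted with an RNeasy kit and DNase and sequenced after TruSeq preparation, per the labels' protocols. The authors deposited RPKM per UCSC transcript, 1 column per library, and all columns matched a library by title (0 left over). CASAVA 1.8.2, Novoalign 2.07.03 and the build mm9 are named per the submitters' processing notes, and no counting program is named in them. A deposited table of human tumours was not analysed here.

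RPKM are not counts, so the test was limma 3.58.1 (eBayes with trend, two-sided) on log2(RPKM + 1), in 1 model of the 4 Cre groups over 13 clear cell sarcomas, with a filter of RPKM at least 1 in at least 2 libraries and Benjamini-Hochberg adjustment over 15195 transcripts. The Rosa26CreER libraries were kept in the fit because the progenitor groups hold 2 libraries each. No covariate was used. The transcripts, sets and comparisons were chosen with earlier results of these data known. The 4 printed transcripts are the 2 largest differences in each direction by the rule in the text. Gene lists and marker lists that had been planned could not be read and were left out.

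Whole reads, library totals and lengths were recovered from the ratios of low RPKM values between libraries, which were whole-number ratios within 1e-06 on the natural log scale. Lengths followed for 16354 of 16398 transcripts above 0 in at least 6 libraries, with a median of 1203.5 bases, and 1603 were under 100 bases, down to 2. The method was tested on simulated RPKM, where the lengths it found were those simulated. Recovered reads served only for the alternatives chosen after seeing the data and for describing depth. Outside sets came from limma on the 24 other libraries and 15117 transcripts. Alternatives covered pseudocounts, filters, scaling, the libraries in the fit, averaging of the N123 libraries, length, the trend and each library left out.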

Additional observations from a re-analysis of the deposited data

Results flagged for a closer look

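In 28 groups of 4 to 10 libraries the highest or lowest value was checked against the spread of the others, and 5 groups had 1 library standing apart. The limit used gives about 1 in 20 by chance for normally distributed values. RPKM with many zeros are not so distributed, so the number expected by chance here is not known. The TATCre tumour N123-Rleg was the highest of its group for uc007ubp.1 at 1271 RPKM, above 305 to 396 in the other TATCre tumours. A Rosa26CreER tumour was apart for the same transcript at 24.4 RPKM, and a Rosa26CreER tumour was apart for uc012fvj.1 at 6.74 RPKM. Over the 346 transcripts of the control tissue Rosa26CreER N2 had a mean log2(RPKM + 1) of 3.15, the highest of its 5 libraries. Over the 44 transcripts lower in TATCre the lowest synovial sarcoma, at 2.08, was apart from the rest of its group. The direct test between Prx1CreERT2 and Bmi1IRESCreERT2 called 152 transcripts as different in their distance from TATCre. With a mean of at least 50 reads it called 0 by limma (828 at an unadjusted p under 0.05), and on the scale of reads plus 20 it called 1.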

How the results depend on the processing

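Call counts depended on single libraries: leaving out each of the 8 in turn gave 159 to 892 calls against Prx1CreERT2, 204 to 2763 against Bmi1IRESCreERT2, 569 to 3008 against the mean of both and 65 to 637 against both groups (47 to 325 higher, 10 to 312 lower). It gave 80 to 196 between the progenitor groups, and 69 to 125 and 9 to 84 one-group differences for Prx1CreERT2 and Bmi1IRESCreERT2. The highest of these against TATCre came without N178-Lleg (892, 2763, 3008 and 637), and the calls against Prx1CreERT2 fell to 160 and 159 without Prx1CreERT2 N2 or N4. Without N179-Larm 806 and without N123-RLN 1003 were called against Bmi1IRESCreERT2. With a mean of at least 50 reads, fewer transcripts were tested and 148 were called against Prx1CreERT2, 120 against both (100 higher, 20 lower), 0 between the progenitor groups, and 0 and 0 as one-group differences. With only the 8 libraries in the fit the counts were 729 against Bmi1IRESCreERT2, 1014 against the mean of both, 112 higher than both, 246 between the progenitor groups and 125 for Bmi1IRESCreERT2 alone; the cause was not tested. Requiring 4 or more libraries that reached an RPKM of 1 gave 50 between the progenitor groups, with 33 and 13 one-group differences, and a length of at least 100 bases gave 23, with 14 and 8. On the scale of reads plus 20 these were 1, 0 and 1, with or without the length limit. Against the mean of both groups the 4 named transcripts kept their direction and call in all 8 fits without a library and in 13 other alternatives, with adjusted p by limma of at most 0.0195; against Prx1CreERT2 uc007ubp.1 kept its call in 6 of the 8 and uc012fvj.1 in 4 of the 8 and 12 of the 13. For the mean of both groups, the naming rule fixes the direction when a library is left out and favours the call. Quantile normalization shifted the median of all transcripts by 0.26 in log2 for TATCre against Bmi1IRESCreERT2 and by 0.18 against the mean of both. Transcripts under about 20 reads summed over a pair of libraries, which can be listed at 0, set the limit of what these data resolve in the paired libraries. No paired analysis was possible because the TATCre titles share no number with either progenitor group, and the progenitor groups share only the number 2.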

Other observations

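The pairs of libraries that share their zeros ran across tissues. The other pairs of the 8 libraries were Bmi1IRESCreERT2 N1 with Rosa26CreER N3, where 5 of 14120 transcripts above 0 had fewer than 20 summed reads, and Bmi1IRESCreERT2 N2 with Rosa26CreER N1, where 0 of 12811 had. TATCre N123-Rleg was paired with the control Chest3 (1 of 11914) and TATCre N178-Lleg with the synovial sarcoma 39-5 (3 of 14385). By contrast, TATCre N123-RLN had 2366 of 14641 transcripts under 20 summed reads with its closest library, and N179-Larm had 2301 of 14552. Of the 237 transcripts that differed from both groups, 104 to 220 were also called under each of the 13 alternatives other than leaving out 1 library, lowest with only the 8 compared libraries in the fit.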
